A study of Homo sapiens with 12 samples.

Results

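PRELID2 was listed with 11 circular RNAs (circRNAs) among the 17938 circRNAs profiled in 2 colorectal cancer cell lines, and all 11 are described here. They are all the circRNAs whose host gene the table gives as PRELID2. The gene was chosen by measured values of 1 of them, hsa_circ_0008647, which was lower in resistant than in sensitive HCT116 cells and higher in resistant than in sensitive Lovo cells. Those values are therefore given as a description, and nothing is read from a test of them. The tests relied on are of other reads or of the comparison between the lines. The line comparisons of hsa_circ_0008647 and of its share do use its reads, in a contrast other than resistance.

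The 4 groups, each of 3 libraries, were HCT116 cells made resistant to 5-fluorouracil (5-Fu), their sensitive parental HCT116 cells, Lovo cells made resistant to 5-Fu, and their sensitive parental Lovo cells. HCT116 and Lovo are established human colorectal carcinoma lines, and 5-Fu is a pyrimidine analogue that blocks thymidylate synthesis and is incorporated into RNA. Per the labels' protocols, resistance was raised by stepwise exposure to 0.1 up to 2 µg/ml 5-Fu, and survival for 3 days or longer at the highest dose was required. Each resistant group is thus a selected derivative of 1 line, and changes picked up during selection that have nothing to do with the drug cannot be told apart from resistance. Whether the replicates were grown as separate cultures is not in the labels, and the spread behind each p-value may therefore be technical.

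A circRNA forms when the splicing machinery joins a downstream splice donor back to an upstream acceptor, which closes the exons between them into a ring without free ends. The junction made by this back-splicing does not occur in the linear messenger RNA, and reads that cross it count the circle. One gene can give several circles that share a donor or an acceptor, so the reads of its junctions show both how much circular RNA it yields and which exons are enclosed. PRELID2 encodes a member of the PRELI domain family of mitochondrial proteins. Its relatives PRELID1 and PRELID3B, each bound to TRIAP1, carry phospholipids across the space between the mitochondrial membranes, whereas the cargo of PRELID2 itself is less well characterised. Linear PRELID2 RNA and protein were not analysed here.

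Junction reads per library ranged from 5654 to 10535 over all circRNAs. PRELID2 held 221 reads in the 12 libraries and ranked 32nd of 5957 host genes by reads. The table lists a median of 2 circRNAs per host gene, and 228 host genes had at least as many listed as PRELID2. As a check of the labelled cell type, 14 of 25 intestinal epithelial marker genes were hosts of circRNAs with reads, among them EPCAM, CDH1 and CDH17, with 5 to 10 reads per library in resistant HCT116, 0 to 7 in sensitive HCT116, 6 to 20 in resistant Lovo and 5 to 24 in sensitive Lovo. The other 11, among them KRT8, KRT18, KRT20, CDX1 and CDX2, had no circRNA listed, and neither had any of the 11 fibroblast, 11 immune and 7 endothelial markers. A gene without circRNAs can still be expressed, so these zeros say nothing about its messenger RNA.

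The PRELID2 junctions lay on the minus strand of chromosome 5 (hg19) between 144817635 and 145210610. On this strand the higher coordinate is the acceptor side of a back-splice and the lower coordinate the donor side. Of the 11 circRNAs, 6 were exonic, 3 intronic and 2 sense overlapping, in the authors' classes. The 6 exonic ones carried circBase identifiers, which is the public catalogue of circRNAs. The table assigned 7 to the transcript NM_138492 and 4, with 17 reads in all, to ENST00000510259, whose junctions lay further downstream. Reads were concentrated in few junctions: 2 circRNAs held 187 of the 221 reads (84.6%), the other 9 held 34, and 1 of these, the sense overlapping circRNA from 145197457 to 145210610, had no read in any library. Each of the other 8 had between 2 and 9 reads, and 4 circRNAs were read in 1 library only.

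The main circRNAs are nested and share their acceptor. hsa_circ_0006528 ran from 145197457 to 145205763, was exonic and had a predicted length of 496 bases. With 108 reads it was the most read PRELID2 circRNA and ranked 58th of all circRNAs. hsa_circ_0008647 ran from 145176005 to the same 145205763, had a predicted length of 602 bases, and with 79 reads ranked 94th. Its predicted length exceeded that of hsa_circ_0006528 by 106 bases. The stretch from 145176005 to 145176110, bounded by the donor end of hsa_circ_0008647 and the acceptor end of the exonic hsa_circ_0074385, is also 106 bases long. By these lengths the larger circle would hold the exons of the smaller one plus 1 downstream exon. The exonic circle hsa_circ_0008132 ran from 145144494 to the same acceptor, with a predicted length 70 bases greater than that of hsa_circ_0008647. hsa_circ_0074385, from 145144494 to 145176110, was predicted at 176 bases, which is that 106-base stretch and the same 70 bases.

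The acceptor at 145205763 was thus used by 3 circRNAs, which together held 196 reads, or 88.7% of the PRELID2 total, with 26 in resistant HCT116, 46 in sensitive HCT116, 92 in resistant Lovo and 32 in sensitive Lovo. The donor end at 145197457 was shared by 4 circRNAs with 113 reads (51.1%), of which hsa_circ_0006528 held 108. The remaining exonic circles, hsa_circ_0074388 (235 bases) and hsa_circ_0074389 (293 bases), joined this donor to acceptors at 145199581 and 145202697. The 3 intronic circRNAs shared their higher-coordinate end at 145083858 and held 11 reads. Whether that end is a splice acceptor was not tested. The reads of PRELID2 therefore came mostly from back-splices into 1 acceptor, and these circles differed in the donor.

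**Figure D1:**
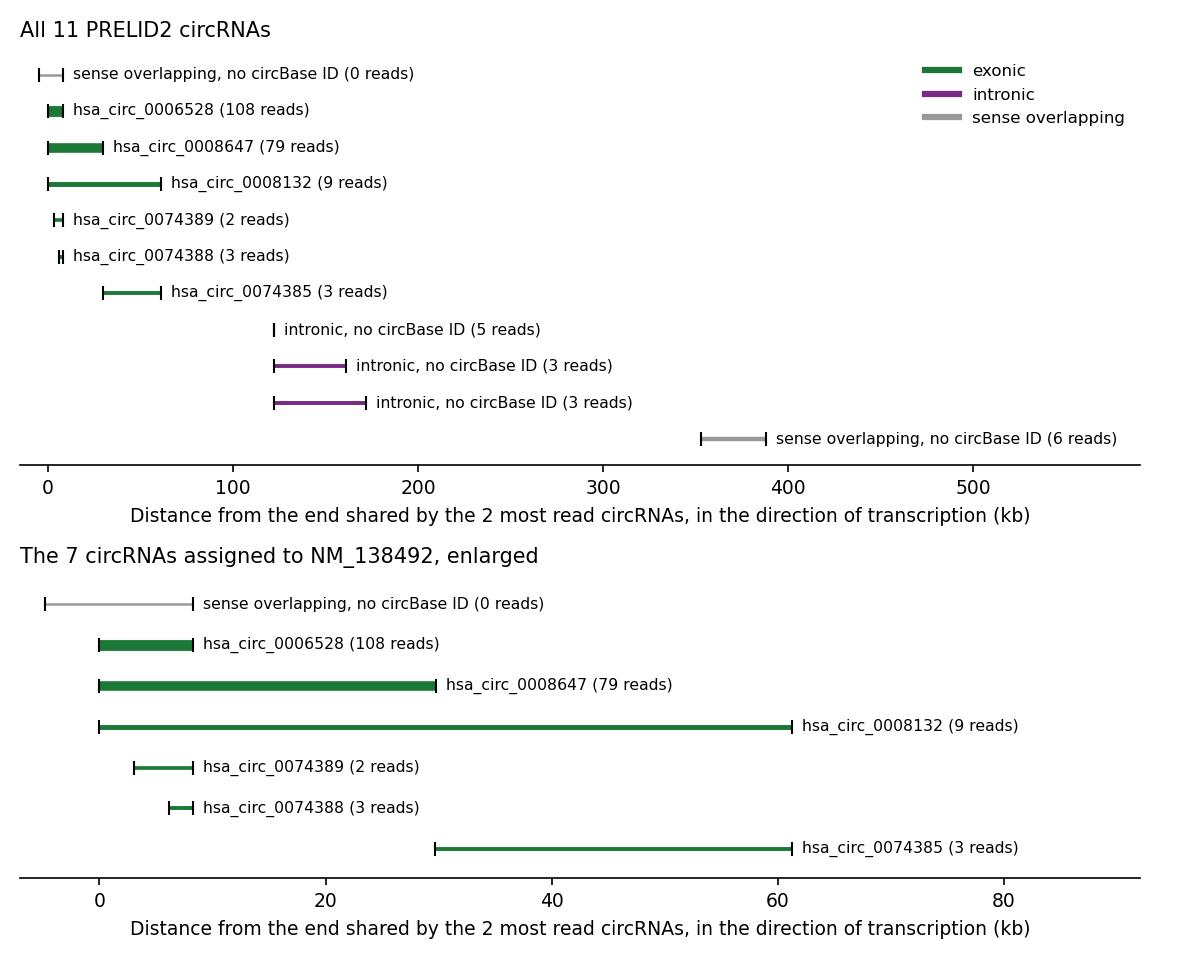
Positions of the 11 PRELID2 circRNAs as distance in kb from the end shared by hsa_circ_0006528, hsa_circ_0008647 and hsa_circ_0008132, in the direction of transcription, with the 7 circRNAs on NM_138492 enlarged below. Line colour gives the class, line thickness grows with the reads summed over 12 libraries, and ticks mark the 2 ends; the thickest lines, with 108 and 79 reads, start at 0.

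hsa_circ_0008647 had 5, 0 and 2 reads in the resistant HCT116 libraries, against 11, 7 and 7 in the sensitive HCT116 libraries. It had 18, 7 and 17 reads in the resistant Lovo libraries, against 1, 1 and 3 in the sensitive Lovo libraries. The groups did not overlap within either line, and the direction was opposite: every resistant HCT116 library lay below every sensitive one, and every resistant Lovo library lay above every sensitive one. As CPM, the junction reads scaled to a common library size with edgeR's TMM factors, the level averaged 268 ± 290 in resistant HCT116, 1153 ± 571 in sensitive HCT116, 1843 ± 822 in resistant Lovo and 258 ± 189 in sensitive Lovo (SD, n = 3 each). The means in resistant HCT116 and sensitive Lovo were close, and the one in resistant Lovo was the highest. Neighbours in this order, sensitive Lovo and resistant HCT116, and sensitive HCT116 and resistant Lovo, differed by less than the larger of their SDs. The lowest value in resistant Lovo, 894 CPM, also fell within the range of 791 to 1811 CPM in sensitive HCT116. In the library with 0 reads, replicate 2 of resistant HCT116, a count of 0 allows up to 3 reads, which is 372.2 CPM there.

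The fitted resistance effects of hsa_circ_0008647 were a log2 difference of -1.97 in HCT116 and 2.78 in Lovo, and the HCT116 effect minus the Lovo effect was -4.75. These values chose the gene and are descriptive. Among 300 circRNAs with enough reads to test, they stood at the 4th percentile in HCT116 and at the 98.7th in Lovo. For comparison, 6.33% of tested circRNAs had every resistant HCT116 library below every sensitive one, and 7.67% had every resistant Lovo library above every sensitive one. At an adjusted p under 0.05 in edgeR's quasi-likelihood test, 0.333% of tested circRNAs were called for the difference of the resistance effects. The 1 circRNA called was hsa_circ_0008647 itself. Because this contrast chose the gene, nothing is read from that call. Leaving out replicate 1 of resistant HCT116 put its HCT116 effect at -3.06, and leaving out replicate 2 put it at -1.47. Bulk RNA cannot tell fewer cells that hold a circRNA from less of it per cell.

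**Figure D2:**
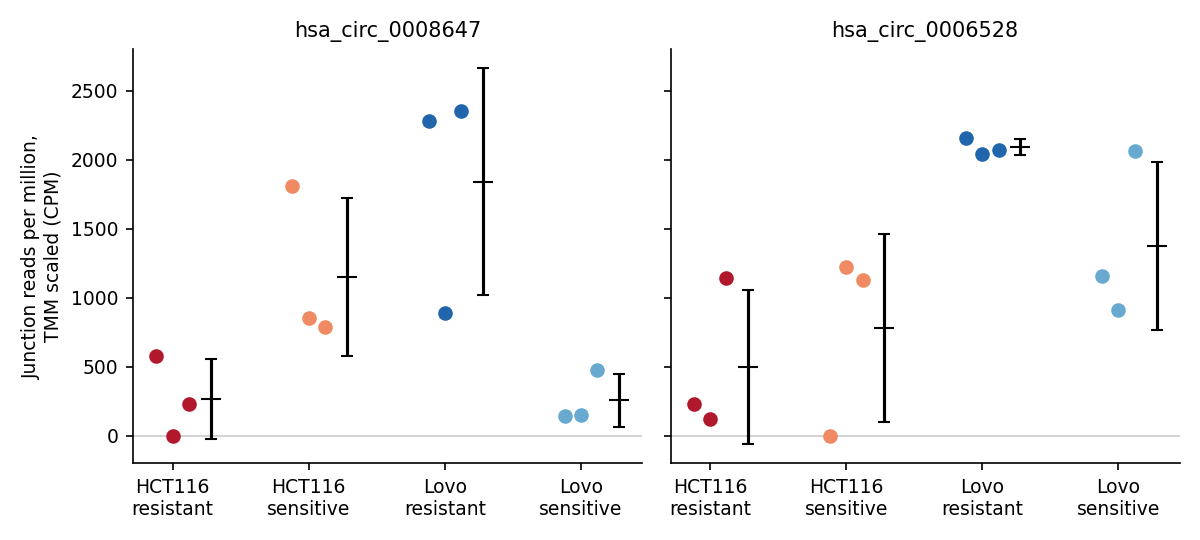
Level of hsa_circ_0008647 (left) and hsa_circ_0006528 (right) in CPM, TMM scaled, with 1 point per library and the mean and SD of the 3 libraries of each group beside them. The left panel shows resistant HCT116 at 0 to 576 CPM below sensitive HCT116 at 791 to 1811, and resistant Lovo at 894 to 2351 above sensitive Lovo at 144 to 476; in the right panel the drug states of each line overlap.

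hsa_circ_0006528, which shares that acceptor, was lower in HCT116 than in Lovo cells as an average over both drug states. The lines were not compared within 1 drug state here. This circRNA was not called for resistance in either line. It had 2, 1 and 10 reads in resistant HCT116 and 0, 10 and 10 in sensitive HCT116. In resistant Lovo it had 17, 16 and 15 reads, against 8, 6 and 13 in sensitive Lovo. The 3 resistant Lovo libraries were alike, whereas both HCT116 groups spread from almost nothing to 10 reads. Levels averaged 499 ± 559 CPM in resistant HCT116, 785 ± 681 in sensitive HCT116, 2091 ± 58.3 in resistant Lovo and 1378 ± 607 in sensitive Lovo (SD, n = 3 each). Sensitive Lovo ranged from 913 to 2064 CPM, so that its upper end fell inside the range of resistant Lovo (2044 to 2156 CPM) and its lower end inside that of both HCT116 groups, which reached 1141 CPM when resistant and 1224 CPM when sensitive.

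Averaged over both drug states, hsa_circ_0006528 was lower in HCT116 than in Lovo by a log2 difference of -1.36 ± 0.41 (SE), with an adjusted p of 0.00649 in edgeR's quasi-likelihood test and a 95% interval from -2.17 to -0.55. In this balanced design the comparison of the lines weighs both drug states of a line equally, so it is a contrast other than resistance. Its estimate need not be independent of the resistance effects, because the spread of counts changes with their level. hsa_circ_0006528 was 1 of the 2 PRELID2 circRNAs with enough reads to test, and the only one called between the lines. A call was not unusual in this comparison, because 25.3% of the 300 circRNAs tested differed between the lines (37 higher and 39 lower in HCT116). The call was marginal to several libraries. Without replicate 2 of resistant HCT116, where 1 read was found, the difference was -1.10 with an adjusted p of 0.0536 in edgeR. Without replicate 1 of sensitive HCT116 it was -1.05 (adjusted p 0.0481), and without replicate 3 of sensitive Lovo -1.20 (0.0490). Each leave-out also changed the set of circRNAs tested. The call was lost too with no filter on low counts (adjusted p 0.375 in edgeR). hsa_circ_0008647 itself gave a log2 difference between the lines of -0.30 ± 0.60 (SE), with an adjusted p of 0.771 in edgeR and a 95% interval from -1.48 to 0.87. Its mean was higher in HCT116 than in Lovo among sensitive cells (1153 against 258 CPM). Among resistant cells it was lower in HCT116 (268 against 1843 CPM). The average over both drug states sets these opposite line differences against each other, so the small estimate does not mean that the lines were alike.

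For resistance, hsa_circ_0006528 gave a log2 difference of -0.70 ± 0.64 (SE) in HCT116, with an adjusted p of 0.868 in edgeR and a 95% interval from -1.97 to 0.56. In Lovo it gave 0.60 ± 0.53 (SE), with an adjusted p of 0.904 in edgeR and an interval from -0.43 to 1.64. The HCT116 effect minus the Lovo effect was -1.31 ± 0.83 (SE), with an adjusted p of 0.633 in edgeR and an interval from -2.94 to 0.33. These values moved with single libraries. The HCT116 difference was -2.13 without replicate 3 of resistant HCT116 and -1.12 without replicate 1 of sensitive HCT116. It lay between -0.38 and -0.28 without any 1 of the other 4 HCT116 libraries. The Lovo difference was 0.34 without replicate 2 and 0.99 without replicate 3 of sensitive Lovo, and the HCT116 effect minus the Lovo effect ran from -2.68, without replicate 3 of resistant HCT116, to -0.87, without replicate 2 of sensitive HCT116. The signs were those of hsa_circ_0008647 in both lines, but each interval includes 0. Each also includes changes of more than 1 log2 unit in the direction of its estimate, so a response of that size was neither shown nor excluded at this depth. Few circRNAs were called at all: 1% of the 300 tested were called in HCT116 and 0% in Lovo, where 17 had an unadjusted p under 0.05 in edgeR and DESeq2 also called 0.

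**Figure D3:**
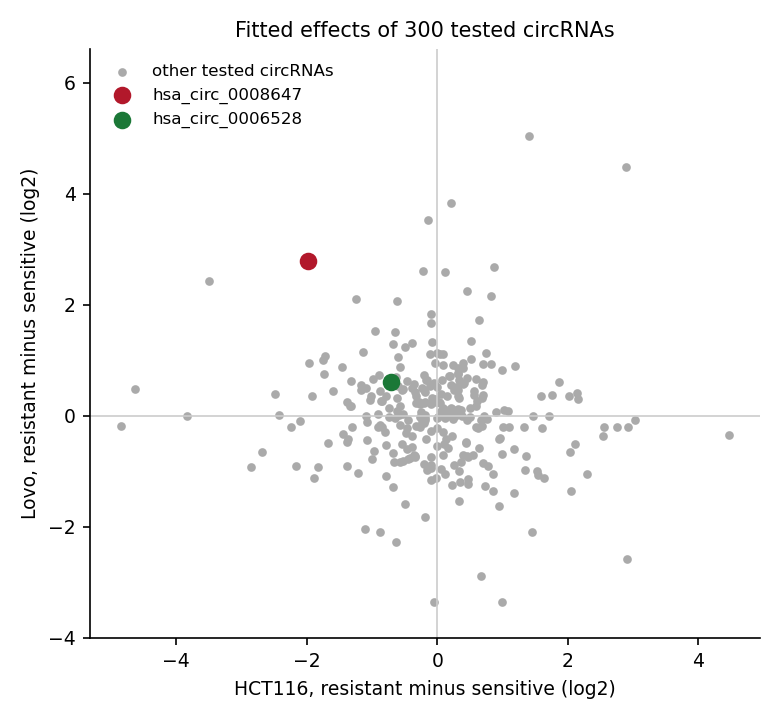
Fitted resistance effects of the 300 tested circRNAs, with the log2 difference of resistant minus sensitive cells in HCT116 on the horizontal axis and in Lovo on the vertical axis, 1 point per circRNA. hsa_circ_0008647 lies at -1.97 and 2.78, in the quadrant of lower in resistant HCT116 and higher in resistant Lovo, and hsa_circ_0006528 at -0.70 and 0.60 in the same quadrant near the centre.

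The remaining 9 circRNAs together had 22 reads in HCT116 and 12 in Lovo, a share of 25.3% of the PRELID2 reads in HCT116 and 8.96% in Lovo. None of them reached the count needed for a test, and their levels averaged 469 ± 194 CPM in resistant HCT116, 402 ± 513 in sensitive HCT116, 354 ± 214 in resistant Lovo and 202 ± 176 in sensitive Lovo (SD, n = 3 each). hsa_circ_0008132, the largest exonic circle, came just below the minimum of 10 reads set for per-library values, with 9 reads, and hsa_circ_0008647, the next above it, had 79. Its reads were 3, 2 and 1 in resistant HCT116 and 0, 1 and 0 in sensitive HCT116. In resistant Lovo it had 2, 0 and 0 reads, and it had none in sensitive Lovo. It was the only PRELID2 circRNA with a read in all 3 resistant HCT116 libraries besides hsa_circ_0006528.

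The 3 intronic circRNAs had 11 reads in HCT116, in 3 libraries, and 0 in Lovo. The circRNA from 145083538 to 145083858, with a predicted length of 321 bases, had 1 read in replicate 2 of resistant HCT116 and 4 in replicate 2 of sensitive HCT116. The longer ones, from 145044817 and 145033829 to the same 145083858, each had 3 reads in 1 library, replicate 1 of resistant HCT116 and replicate 2 of sensitive HCT116. Replicate 2 of sensitive HCT116 thus held 7 of these 11 reads. Among the rest, the sense overlapping circRNA from 144817635 to 144852878 had 6 reads, with 2 in resistant HCT116, 2 in sensitive HCT116, 2 in resistant Lovo and 0 in sensitive Lovo. hsa_circ_0074385 had 3 reads in replicate 3 of resistant Lovo, hsa_circ_0074388 had 1 in resistant Lovo and 2 in sensitive Lovo, and hsa_circ_0074389 had 2 in sensitive Lovo, so that these 3 exonic circles were read in Lovo libraries only. With 2 or 3 reads each, no difference between the lines can be read from them.

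**Figure D4:**
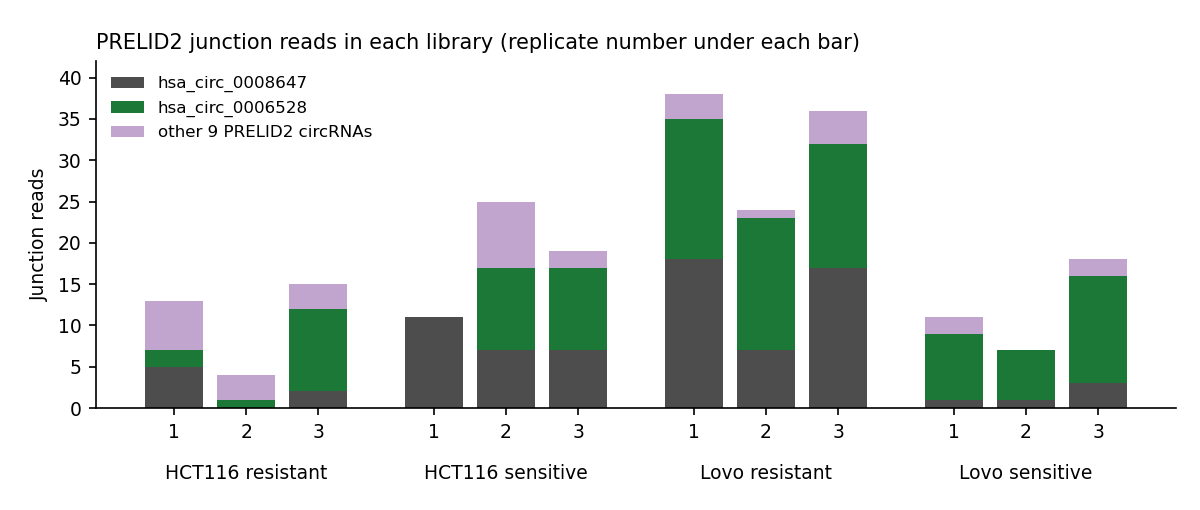
PRELID2 junction reads in each of the 12 libraries, stacked as hsa_circ_0008647, hsa_circ_0006528 and the other 9 circRNAs, with the replicate number under each bar. Resistant Lovo libraries hold the most reads, 38, 24 and 36, and in replicate 1 of sensitive HCT116 all 11 reads are of hsa_circ_0008647.

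Summed over its junctions, PRELID2 had 13, 4 and 15 reads in resistant HCT116 and 11, 25 and 19 in sensitive HCT116. It had 38, 24 and 36 in resistant Lovo, against 11, 7 and 18 in sensitive Lovo. These reads made up 0.121% of all junction reads in resistant HCT116, 0.215% in sensitive HCT116, 0.445% in resistant Lovo and 0.197% in sensitive Lovo. The sum averaged 1236 ± 649 CPM in resistant HCT116, 2339 ± 646 in sensitive HCT116, 4288 ± 1061 in resistant Lovo and 1838 ± 922 in sensitive Lovo (SD, n = 3 each).

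To measure the host gene without the circRNA that chose it, the reads outside hsa_circ_0008647 were summed. This remainder had 8, 4 and 13 reads in resistant HCT116 and 0, 18 and 12 in sensitive HCT116, and 20, 17 and 19 reads in resistant Lovo against 10, 6 and 15 in sensitive Lovo. Scaled to library size, the groups overlapped in both lines: resistant Lovo ranged from 2171 to 2627 CPM and sensitive Lovo from 913 to 2382 CPM, and resistant HCT116 ranged from 496 to 1484 CPM and sensitive HCT116 from 0 to 2203 CPM. The log2 difference of resistant minus sensitive cells was -0.27 ± 0.52 (SE) in HCT116, with an adjusted p of 0.958 in edgeR and a 95% interval from -1.29 to 0.76. It was 0.61 ± 0.48 (SE) in Lovo, with an adjusted p of 0.947 in edgeR and an interval from -0.32 to 1.54, and the HCT116 effect minus the Lovo effect was -0.88 ± 0.71 (SE), with an adjusted p of 0.837 in edgeR. The HCT116 direction was not stable: without replicate 2 of sensitive HCT116 the difference was 0.41, and without replicate 2 of resistant HCT116 it was 0.02, whereas it was -0.79 without replicate 3 of resistant HCT116 and -0.78 without replicate 1 of sensitive HCT116. The Lovo difference was 0.33 without replicate 2 and 1.06 without replicate 3 of sensitive Lovo, and the HCT116 effect minus the Lovo effect ran from -1.48, without replicate 3 of resistant HCT116, to -0.19, without replicate 2 of sensitive HCT116. Of the 580 host genes tested, 0.517% were called in HCT116, 0% in Lovo and 0% for the difference of the effects. In edgeR, 28 host genes in Lovo and 37 for the difference had an unadjusted p under 0.05, and DESeq2 called 0 in both.

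Between the lines, the reads outside hsa_circ_0008647 were lower in HCT116 by a log2 difference of -0.85 ± 0.35 (SE). The adjusted p was 0.0683 in edgeR over 580 host genes, of which 20% were called in this comparison, and the 95% interval ran from -1.54 to -0.15. The result did not pass the threshold. With DESeq2's size factors it did, at -0.96 and an adjusted p of 0.0342 in edgeR. DESeq2's own Wald test did not pass, at -0.98 and an adjusted p of 0.0643. A minimum count of 10 did, at -0.88 and an adjusted p of 0.0291 in edgeR. The call thus depends on the scaling, the test and the filter.

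Shares within the gene do not depend on how libraries are scaled. Of the PRELID2 reads outside hsa_circ_0008647, hsa_circ_0006528 held 13 of 25 (52.0%) in resistant HCT116, 20 of 30 (66.7%) in sensitive HCT116, 48 of 56 (85.7%) in resistant Lovo and 27 of 31 (87.1%) in sensitive Lovo. Per library the share averaged 42.3% ± 30.0 (SD, n = 3) in resistant HCT116, 69.4% ± 19.6 (SD, n = 2) in sensitive HCT116, 86.0% ± 7.64 (SD, n = 3) in resistant Lovo and 88.9% ± 10.2 (SD, n = 3) in sensitive Lovo. Replicate 1 of sensitive HCT116 had no such read and dropped out. The mean share in HCT116 minus that in Lovo was -31.6 percentage points, with p = 0.02 in a two-sided exact permutation test of line labels within each drug state (200 arrangements, 5 against 6 libraries). The call was lost without replicate 2 of sensitive HCT116, without any 1 of the resistant Lovo libraries, and without replicate 2 or 3 of sensitive Lovo, with p between 0.05 and 0.075 in the exact permutation tests. A larger share of these reads in HCT116 thus lay on minor junctions, foremost the intronic circRNAs and hsa_circ_0008132. Totals were 4 to 20 reads per library used. The share also moves with hsa_circ_0006528 itself, which averaged 499 and 785 CPM in resistant and sensitive HCT116, against 2091 and 1378 in Lovo. The other 9 circRNAs averaged 469 and 402 CPM, against 354 and 202. This share, the remainder and the line call of hsa_circ_0006528 therefore rest largely on the same reads.

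The balance between the main circles, which differ only in the donor joined to the shared acceptor, was followed as the share of hsa_circ_0008647 in the reads of both. It was 5 of 7, 0 of 1 and 2 of 12 reads in resistant HCT116, or 35.0% of the pooled reads (exact Clopper-Pearson 95% interval 15.4% to 59.2%). In sensitive HCT116 it was 11 of 11, 7 of 17 and 7 of 17, or 55.6% (40.0% to 70.4%). In resistant Lovo it was 18 of 35, 7 of 23 and 17 of 32, or 46.7% (36.1% to 57.5%), against 1 of 9, 1 of 7 and 3 of 16, or 15.6% (5.28% to 32.8%), in sensitive Lovo. These intervals treat the pooled reads of 3 libraries as independent draws, so they leave out the spread between libraries and do not compare the groups. PCR copies of 1 molecule were not marked by identifiers, so even the counting error may be understated. Every resistant Lovo library was above every sensitive one, while the HCT116 groups overlapped, with resistant libraries at 0% to 71.4% and sensitive ones at 41.2% to 100%. The resistance differences of this share contain the reads that chose the gene and are not tested.

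Averaged over both drug states, the same balance differed between HCT116 and Lovo by 15.2 percentage points, with p = 0.445 in a two-sided exact permutation test (400 arrangements, 6 against 6 libraries); this measure was chosen after the values were seen. Of all PRELID2 reads, hsa_circ_0008647 made up 21.9% in resistant HCT116, 45.5% in sensitive HCT116, 42.9% in resistant Lovo and 13.9% in sensitive Lovo. For hsa_circ_0006528 the shares were 40.6% in resistant HCT116, 36.4% in sensitive HCT116, 49.0% in resistant Lovo and 75.0% in sensitive Lovo. The smaller circle was read more often in every sensitive Lovo library. In sensitive HCT116 the larger circle was read more often in replicate 1 alone, and in replicates 2 and 3 it held 41.2% of the reads of both, so the pooled excess there rests on 1 library.

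**Figure D5:**
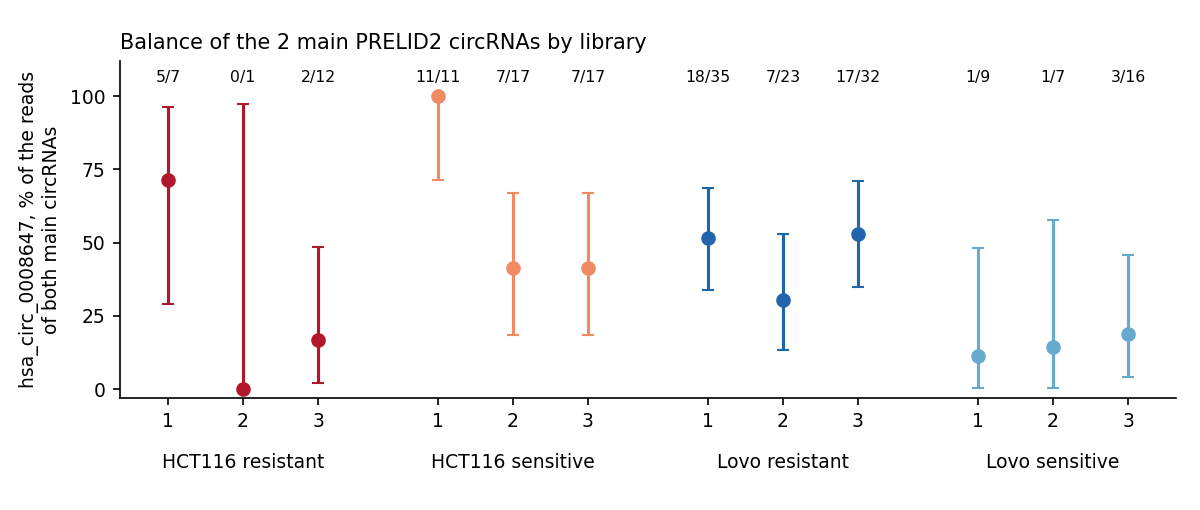
Share of hsa_circ_0008647 in the reads of hsa_circ_0008647 and hsa_circ_0006528 in each library, in percent, with exact 95% intervals and the reads printed above. Sensitive Lovo libraries lie at 11.1% to 18.8% and resistant Lovo libraries at 30.4% to 53.1%, and the HCT116 libraries spread from 0% to 100%.

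The profile of the larger circle was not close to that of the smaller one. After each profile of log2 CPM was centred on its own mean, hsa_circ_0006528 differed from hsa_circ_0008647 by a root mean square of 1.28 log2 units over the 12 libraries, which ranked 160th of 299 tested circRNAs, near their median of 1.26. Nearest to hsa_circ_0008647 were circRNAs of FAM13B (0.78 log2 units), WHSC1 (0.85), ZNF394 (0.86), RARS (0.87) and TMEM138 (0.88). The WHSC1 circRNA had 2 reads in resistant HCT116, 25 in sensitive HCT116, 14 in resistant Lovo and 2 in sensitive Lovo. Its order of resistant and sensitive cells was that of the PRELID2 circle in both lines. In the same groups the circRNA of FAM13B had 40, 47, 51 and 31 reads, that of ZNF394 30, 30, 26 and 19, and that of TMEM138 5, 12, 29 and 16. The RARS circRNA had 70, 51, 67 and 40, with fitted resistance effects above 0 in both lines (log2 0.29 in HCT116 and 0.52 in Lovo). Being among the nearest thus did not require opposite resistance effects. Nearest to the PRELID2 host sum were the host sums of TMEM138 (0.38 log2 units), MSH3 (0.51), TUBGCP4 (0.52), FAM13B (0.54) and CCNB1 (0.57). TMEM138 had 5 reads in resistant HCT116, 12 in sensitive HCT116, 29 in resistant Lovo and 16 in sensitive Lovo.

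Of the 38 host genes with 2 or more circRNAs tested, PRELID2 ranked 8th by the spread of the difference of resistance effects among its own circRNAs, at 3.45 log2 units against a median of 1.91. This spread contains the value that chose the gene and is a description.

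Genes of mitochondrial lipid transfer and inner membrane lipids were compared as a list. Of 58 gene names in the list, 35 hosted listed circRNAs, 32 had reads and 4 had enough to test. In edgeR 0 of the 4 were called in any of the 4 comparisons. Over all host genes tested, 0.517% were called in HCT116, 0% in Lovo, 0% for the difference of the effects and 20% between the lines. With 4 genes tested, the absence of calls says little about the list. Of the PRELI family itself, PRELID1, PRELID3B (SLMO2) and the partner TRIAP1 hosted no circRNA listed in the table used, and SLMO1, the older name of PRELID3A, had 2 reads, both in sensitive Lovo. The tested genes were OMA1, an inner membrane protease (28 reads in resistant HCT116, 16 in sensitive HCT116, 25 in resistant Lovo and 36 in sensitive Lovo), VPS13A, a bridge-like lipid transfer protein (23, 16, 11 and 8 in the same groups), VAPA, an endoplasmic reticulum tether (18, 11, 7 and 9), and PGS1, a synthase on the route to cardiolipin (20, 11, 2 and 7). Their median log2 difference of resistant minus sensitive cells was 0.68 in HCT116 (0.04 over all host genes tested) and -0.64 in Lovo (0.00 over all), with no member called. In Lovo VPS13A stood at 0.24 ± 0.92 (SE), while OMA1, VAPA and PGS1 were below 0.

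Host genes close to PRELID2 on chromosome 5 were taken as those whose circRNAs lay within 5000000 bases of its junctions. There were 23 such genes, 20 with reads and 2 with enough to test, of which 1 was called between the lines, where 20% of all host genes tested were called, and 0 for resistance in either line or for the difference of the effects. The called gene, ANKHD1, an ankyrin repeat protein gene, had 12 reads in resistant HCT116, 6 in sensitive HCT116, 26 in resistant Lovo and 24 in sensitive Lovo, and was lower in HCT116 than in Lovo by a log2 difference of -1.77 ± 0.57 (SE), with an adjusted p of 0.0133 in edgeR.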

How the data were processed

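Ribosomal-RNA-depleted total RNA was sequenced as directional libraries, per the labels' protocols. The deposited table holds raw, unnormalized counts of reads across each back-splice in each library, with positions on hg19, class, host gene, transcript and predicted length, per the file headers. The submitters' processing notes name hg19, edgeR 3.16.5, STAR 2.5.1b and cutadapt 1.9.3 without saying what each did. Which circRNA caller and annotation were used is not given in the sources used here. Listing of circRNAs with few reads, intronic ones among them, can depend on the caller.

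The members and gene lists were chosen with earlier results of these data known. All 11 PRELID2 circRNAs were taken by host gene; those with at least 10 reads were given per library. The counts entered edgeR 4.0.16 under R 4.3.3 (TMM, filterByExpr with minimum count 5 and minimum total 15, quasi-likelihood F-test, 4 group means over 12 libraries, Benjamini-Hochberg adjusted p under 0.05). The filter kept 300 circRNAs, 2 of them of PRELID2, and 580 host genes; the PRELID2 sum left out hsa_circ_0008647. DESeq2 1.42.0 was an alternative. The code was tested on simulated data. No 2 libraries were identical. The table lists 22 circRNAs without a host gene, and 1 of its lines was not analysed here. Profiles were compared on log2 CPM with a prior count of 2. No sequence of PRELID2 was used here. The values of 1 tested neighbouring host gene, which was not called, are not reported here.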

Additional observations from a re-analysis of the deposited data

Results flagged for a closer look

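The resistance effect of hsa_circ_0008647 had opposite directions in the 2 lines. The HCT116 effect minus the Lovo effect was -4.75 on the log2 scale, with every resistant HCT116 library below every sensitive one and every resistant Lovo library above every sensitive one. It was flagged because this contrast was called at an adjusted p under 0.05 in edgeR. The same value chose the gene, so nothing is read from that call. It ranged from -5.86 to -4.24 when single libraries were left out, and it was -4.62 with total counts in place of TMM scaling.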

How the results depend on the processing

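Replicate numbers did not pair the libraries: over 18 same-numbered pairs, correlations of deviations from group means ran from -0.14 to 0.06, and 3 pairs correlated best with their own number. With the number as a replicate block, hsa_circ_0006528 gave -1.49 (adjusted p 0.00519 in edgeR) between the lines, PRELID2 outside hsa_circ_0008647 gave -0.90 (adjusted p 0.0785), and line calls numbered 65 circRNAs and 106 host genes, against 76 and 116.

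The line difference of PRELID2 outside hsa_circ_0008647 passed the threshold in 6 of 18 alternatives: at -0.96 with DESeq2's size factors, -1.001 with total counts and -0.88 with a minimum count of 10 (adjusted p 0.0342, 0.0251 and 0.0291 in edgeR), and without replicate 3 of resistant HCT116, replicate 2 of sensitive HCT116 or replicate 2 of sensitive Lovo. It ran from -1.24 to -0.64 over the leave-outs. Its HCT116 resistance difference ran from -0.79 to 0.41, and was above 0 in 2 leave-outs (0.02 and 0.41). The line call of hsa_circ_0006528 passed in 17 of 19 alternatives (-2.08 to -1.05). PRELID2 calls between the lines numbered 0 with no filter on low counts (adjusted p 0.375 in edgeR) and 0 to 1 over the leave-outs. The line difference of hsa_circ_0008647 ran from -0.80 to 0.01 over the leave-outs, with 0.0059 without replicate 3 of sensitive Lovo. The share of hsa_circ_0006528 outside hsa_circ_0008647 ran from -40.2 to -24.6 points over the leave-outs, with exact permutation p from 0.0125 to 0.075, and did not pass without replicate 2 of sensitive HCT116, any 1 of the 3 resistant Lovo libraries, or replicate 2 or 3 of sensitive Lovo. The balance share passed in 0 of 15 alternatives (4.70 to 22.6 points). Line calls over all circRNAs numbered 50 of 93 with a minimum count of 10 and 44 of 14911 with no filter. The causes of these changes were not tested. Depth limits all of this: with 5654 to 10535 junction reads per library, 9 of the 11 circRNAs could not be tested.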
